A study of Mus musculus with 8 samples.

Results

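Tendon-rich spots of the E18.5 mouse diaphragm are the top 10% of Visium spots in each section by the summed UMIs (unique molecular identifiers, counted transcript molecules) of *Tnmd*, *Fmod*, *Scx*, *Col11a1* and *Col12a1*, divided by all UMIs of the spot. Spots with at least 1000 UMIs entered the ranking. The rule gave 346 of 3460 kept spots in control 1, 252 of 2525 in control 2, 133 of 1331 in the CaV1.1 -/- section and 215 of 2157 in the bCat cKO section, 946 of 9473 kept E18.5 spots in all. Because these 5 genes chose the spots, their levels are given as descriptions, with no test.

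Tendon cells, or tenocytes, lay down parallel fibrils of type I collagen, whose diameter and spacing are set by fibril-associated collagens, small leucine-rich proteoglycans and glycoproteins of the surrounding matrix. The diaphragm is a sheet of radial muscle whose fibers insert on a central tendon and on connective tissue toward the ribs, and each insertion is a myotendinous junction (MTJ), where the muscle membrane is anchored to tendon matrix. *Scx* encodes scleraxis, a transcription factor of tendon progenitors, and *Tnmd* encodes tenomodulin, a membrane glycoprotein of maturing tenocytes. *Fmod* encodes fibromodulin, a proteoglycan bound to collagen fibrils, and *Col11a1* and *Col12a1* encode chains of type XI and type XII collagen.

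Transcripts were measured with a probe panel in 5 µm sections of fixed, flat-embedded diaphragms, on capture spots 55 µm wide and 100 µm apart. The control group had 2 E18.5 sections, labelled as separate samples, so p-values measure only the spread between these samples, which may be technical, and each mutant had 1 section, so mutant values have no replicate and no test. Controls kept at least one expressed allele of both CaV1.1, the voltage sensor of muscle excitation-contraction coupling, and β-catenin. CaV1.1 -/- embryos lack the channel in every cell and came in part from crosses that also carried HSA-Cre and floxed β-catenin alleles. The bCat cKO embryos (HSA-Cre; β-catenin flox/flox) lose β-catenin where the human skeletal actin promoter drives Cre, that is in muscle fibers and not by design in tendon cells. They came from crosses of CaV1.1 +/- parents, and whether the embryo used here carried a CaV1.1 null allele is not given. Before the UMI minimum the E18.5 sections held 3478 spots with 82859104 UMIs in control 1, 2527 with 69837233 in control 2, 1336 with 23949267 in CaV1.1 -/- and 2166 with 61092194 in bCat cKO.

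Both mutant sections stood apart from the controls in ways that touch the values below. The CaV1.1 -/- section was the smallest and shallowest, and its tendon-rich spots had a median of 11009 UMIs against 17729.5 in the rest of that section, where controls had 23538 and 21950.5 against 22899.5 and 27634. The Y-linked *Ddx3y* had no UMI in the tendon-rich spots or the rest of the CaV1.1 -/- section, where 3 UMIs would equal 1.79 CPM (counts per 1000000 UMIs of the same spots), against 57.5, 53.9 and 50.2 CPM in the other tendon-rich spots, so the sex of the embryo and its genotype cannot be told apart. Liver transcripts were present in the CaV1.1 -/- and control 1 sections, and 20 of the 133 tendon-rich spots of CaV1.1 -/-, 5 of 346 in control 1 and none in control 2 or bCat cKO drew at least 1% of their UMIs from 5 hepatocyte genes. The bCat cKO section held keratins of stratified epithelia in the rest of the section, as given with the mutant values.

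The tendon-rich spots lay mostly along the edge of the muscle. In the controls they formed a band around the opening of the central tendon and short runs at the outer rim, with 165 of 346 spots in 1 connected patch in control 1 and 129 of 252 in control 2. In CaV1.1 -/- the largest patch held 31 of 133 spots and in bCat cKO 67 of 215, and 17 and 11 spots had no tendon-rich neighbour, against 19 and 8 in the controls. By a threshold on 9 muscle genes, 151 of 346, 95 of 252, 30 of 133 and 91 of 215 tendon-rich spots (control 1, control 2, CaV1.1 -/-, bCat cKO) counted as muscle, so many held muscle and tendon transcripts together. The 9 muscle genes made up a median of 6.36%, 4.62%, 2.01% and 2.92% of the UMIs of a tendon-rich spot, against 13.3%, 13.7%, 4.94% and 9.05% in the rest. Spot barcodes are position labels, 2153 of them shared by the 2 controls, and do not mark shared cells. A spot is wide enough to cover several cells, and fewer cells of a type cannot be told apart from less RNA per cell.

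**Figure D1:**
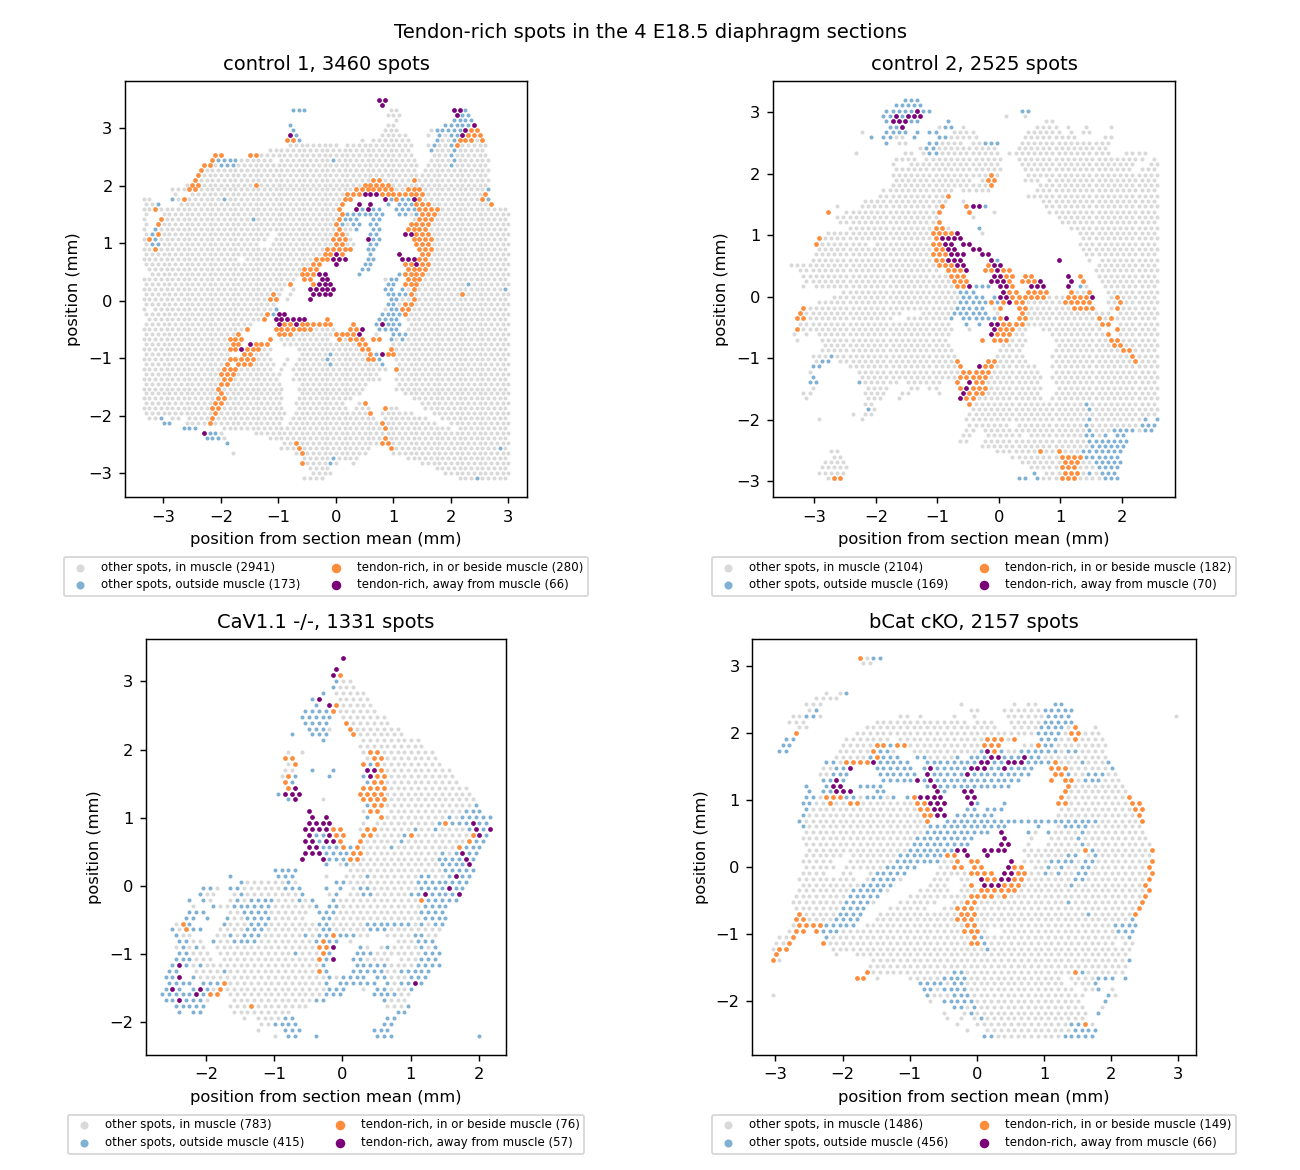
Positions of all kept spots in the 4 E18.5 sections, in mm from the mean position of the section, with tendon-rich spots in orange (in or beside muscle) and purple (away from muscle) and other spots in gray (muscle) and blue (outside muscle). In both controls the tendon-rich spots form a band around the central opening, with the purple spots on its inner side, and the CaV1.1 -/- and bCat cKO sections show smaller, scattered patches.

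The label was checked against markers that the rule did not use. The summed level of 9 further tendon genes (*Mkx*, *Thbs4*, *Tnc*, *Kera*, *Comp*, *Fibin*, *Htra3*, *Col1a1* and *Col1a2*) was 46629 CPM in the tendon-rich spots of control 1 against 7421 in the rest, 80983 against 10639.5 in control 2, 37610.2 against 16046 in CaV1.1 -/- and 58275 against 12716 in bCat cKO, with *Col1a1* the most abundant in each. These sums were higher in the tendon-rich spots of all 4 sections. Cartilage markers, led by *Col2a1*, summed to 1122 against 1049 CPM in control 1 and 1565 against 93.2 in control 2, and 5 of 346 and 9 of 252 tendon-rich spots drew at least 1% of their UMIs from them. Adipocyte markers summed to 238 against 297 CPM in control 1 and 239.98 against 319.9 in control 2, nearly all of it *Fabp4*, with *Adipoq* and *Plin1* at 0 in tendon-rich spots. The lung epithelium marker *Nkx2-1* was at 0 in those of all 4 sections. The other lung marker measured, *Sftpc*, was at 0.48 CPM there in control 1, 0.59 in bCat cKO and 0 in control 2 and CaV1.1 -/-. Both lung markers summed to 0.03 in the rest of control 1 and 0.91 in that of bCat cKO. In CaV1.1 -/- the label held only in part, as *Thbs4* and *Comp*, markers outside the rule, were low, so there the spots are the top 10% by rule rather than a tendon of control-like makeup.

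Each spot was placed by a sum to which the 5 genes contributed unequally. *Fmod* gave 31.3% and 37.5% of the summed UMIs in control 1 and control 2, 41.3% in CaV1.1 -/- and 31.4% in bCat cKO, while *Scx* gave 4.13%, 4.84%, 2.61% and 4.50%. The lowest tendon-rich spot stood at 955.3 CPM (5 genes summed) in control 1 and the highest spot outside at 951.5, with 2285 and 2270 in control 2, 1553 and 1548 in CaV1.1 -/-, and 1892 and 1877 in bCat cKO. The cut therefore fell at different levels in the 4 sections. Median sums in the tendon-rich spots were 2998, 5218, 2193 and 3757 CPM, against 225 and 271 in the rest of the controls, 459 in CaV1.1 -/- and 312 in bCat cKO.

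Per gene, *Tnmd* stood at 1051 CPM in tendon-rich spots against 32.8 in the rest of control 1, 1268 against 48.4 in control 2, 414 against 18.3 in CaV1.1 -/- and 1265 against 45.7 in bCat cKO. Its ratio was between 22.6 and 31.99 in all 4 sections. *Scx* stood at 154 against 54.4, 284 against 64.9, 69.2 against 56.6 and 196 against 75.1, ratios of 2.82, 4.38, 1.22 and 2.61 that were the smallest of the 5 genes in each section. At least 1 *Scx* UMI was found in 89.3% and 98.8% of the tendon-rich spots of the controls and 88.8% in bCat cKO. In CaV1.1 -/- the share was 52.6%, where 57.4% of the other spots had one. Such shares depend on depth, and the median UMIs of these CaV1.1 -/- spots were 11009 against 17729.5, so they do not show less *Scx* than in the rest. The ratios of *Fmod* were 26.1, 27.3, 5.75 and 19.96, lowest in CaV1.1 -/-, where *Fmod* was also higher in the rest of the section (190.5 CPM against 44.6 and 80.7 in the controls). When the spots were ranked by the other 4 genes instead, *Tnmd* kept ratios of 28.9 and 25.2 in the controls and *Scx* 2.77 and 4.34.

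**Figure D2:**
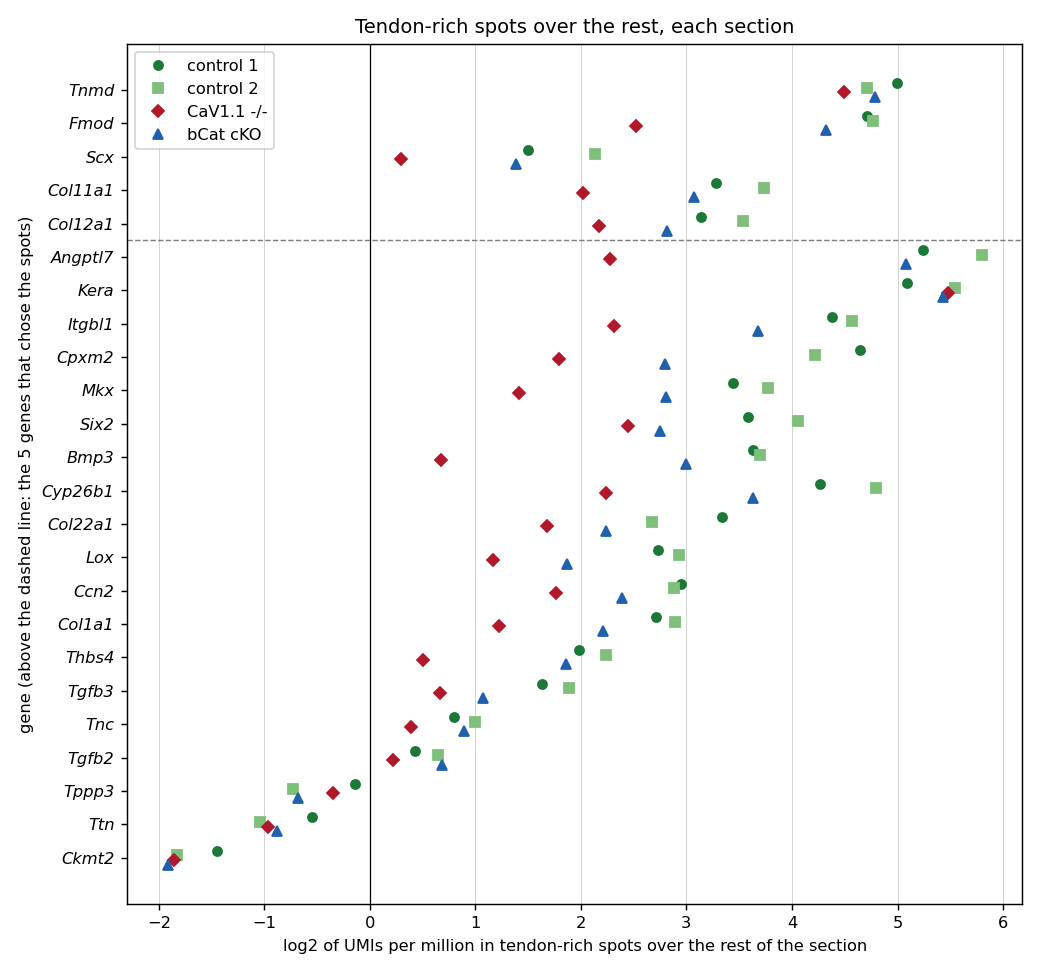
Tendon-rich spots over the rest of the section for 24 genes, as log2 of the ratio of CPM, with 1 symbol per section (circle, control 1; square, control 2; diamond, CaV1.1 -/-; triangle, bCat cKO). The 5 genes above the dashed line chose the spots, *Kera* has much the same ratio in all sections, and for *Scx*, *Fmod*, *Angptl7*, *Bmp3* and *Thbs4* the CaV1.1 -/- symbol lies well below the controls.

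To ask what else tendon-rich spots expressed, their summed counts were compared with the rest of the section in both controls, with edgeR (quasi-likelihood test, section block, Benjamini-Hochberg adjustment). Of the spots in the rest, 94.4% in control 1 and 92.6% in control 2 counted as muscle. This is therefore largely a contrast with muscle, and a gene of any tissue outside muscle can be higher in it. Values in the control comparisons are scaled CPM, that is CPM after trimmed-mean (TMM) scaling. Of 14182 genes tested, 3117 were higher in tendon-rich spots and 3422 lower, 22.0% and 24.1% of all genes. Genes of the same cells as the 5 chosen genes had to differ, so the test asks only whether a difference exceeded the spread between the 2 controls. Without the section block 2888 genes were called, and DESeq2 called 4077. On library totals without TMM scaling the median gene shifted by 0.375 on the log2 scale and the split became 6622 higher and 1624 lower, so directions are relative to the TMM scaling, under which the median gene stood at 0.01. The fit has 2 sections and 1 residual degree of freedom.

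The 12 largest rises were led by *Angptl7* and *Kera*. *Angptl7*, a secreted angiopoietin-like protein of connective tissue, had scaled CPM, in tendon-rich spots against the rest, of 126 against 4.34 in control 1 and 419 against 9.61 in control 2 (log2 fold change 5.18, SE 0.15, adjusted p = 5.69e-14). *Kera*, keratocan, a small proteoglycan known from cornea and tendon, was at 96.6 against 3.69 in control 1 and 176 against 4.79 in control 2 (log2 fold change 4.96, SE 0.13, adjusted p = 4.8e-14). Both genes were low in the rest of the section, and their differences of 36.2-fold and 31.1-fold were the largest of all genes named by size. *Mkx*, Mohawk, a homeobox factor needed for tendon collagen, was at 60.9 against 7.31 in control 1 and 116 against 10.8 in control 2 (log2 fold change 3.25, SE 0.11, adjusted p = 5.92e-13). The other genes of the 12 largest rises were *Itgbl1*, *Cpxm2*, *Ecrg4*, *Zfp185*, *Acan*, *Scube2*, *Abi3bp*, *C1qtnf3* and *Bmp3*, with log2 fold changes from 3.30 to 4.11. *Acan*, aggrecan, is a large proteoglycan of cartilage that is also made in compressed tendon, and *Bmp3* encodes a BMP family ligand.

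Genes of collagen production were higher in most cases. Of 34 tested genes for collagen synthesis and crosslinking 30 were higher in tendon-rich spots and none lower, with a median log2 fold change of 1.03 against 0.01 over all genes. *Col1a1* and *Col1a2*, the chains of type I collagen, had scaled CPM of 23610.4 against 4693 in control 1 and 37869 against 6502 in control 2, and of 16013 against 3187 in control 1 and 30994 against 4666 in control 2 (5.41-fold, SE 0.58 on the log2 scale, adjusted p = 0.00218, and 5.78-fold, SE 0.53, adjusted p = 0.000734, both by edgeR). Type III collagen differed less, with *Col3a1* 2.19-fold higher (adjusted p = 0.0251, edgeR). The collagen processing genes were led by *Pcolce2*, an enhancer of procollagen C-proteinase (54.2 against 3.24 in control 1 and 63.97 against 4.47 in control 2, 15.4-fold), *Lox*, the crosslinking enzyme lysyl oxidase (277 against 54.2 in control 1 and 581 against 97.5 in control 2, 5.52-fold), and *Adamts3*, a procollagen N-proteinase (5.37-fold). *P4ha1*, a prolyl hydroxylase subunit, and *Serpinh1*, the collagen chaperone HSP47, were 2.81-fold and 2.69-fold higher.

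Of 27 collagen genes tested, 18 were higher and 4 lower, and of 13 small leucine-rich proteoglycans 12 were higher and none lower. *Col11a2*, the second chain of type XI collagen, was at 179 against 48.3 in control 1 and 302 against 19.5 in control 2, and *Col22a1*, a collagen of the MTJ, at 299.6 against 38.7 in control 1 and 261 against 52.3 in control 2 (6.22-fold). *Dcn* (decorin) and *Bgn* (biglycan), proteoglycans found in most connective tissue, were 2.56-fold and 3.16-fold higher, and *Chad* (chondroadherin), a cell-binding matrix protein of cartilage, 6.14-fold. Among 47 matrix glycoprotein and elastic fiber genes 34 were higher and 5 lower. *Thbs4*, a thrombospondin of tendon and the MTJ, was at 415 against 137 in control 1 and 586 against 158 in control 2 (log2 fold change 1.75, SE 0.14, adjusted p = 3.93e-08), and *Tnc*, tenascin C, at 259 against 195 in control 1 and 300.3 against 192 in control 2 (log2 fold change 0.53, SE 0.12, adjusted p = 0.00209). *Tnn* (tenascin W), *Spon2* (spondin 2) and *Cilp2* (cartilage intermediate layer protein 2) were 6.95-fold, 8.63-fold and 15.3-fold higher. *Prg4*, lubricin, a lubricant of joints and tendon sheaths, was low at 7.01 against 0.59 in control 1 and 12.9 against 0.93 in control 2 but 12.9-fold higher, while *Tppp3*, a tendon sheath marker that is also present across the muscle, was lower at 510.4 against 735 in control 1 and 368 against 777 in control 2 (log2 fold change −0.80, SE 0.18, adjusted p = 0.00145). *Comp*, cartilage oligomeric matrix protein, was at 31.2 against 29.6 in control 1 and 61.9 against 6.12 in control 2, and its level in the rest of the section was higher in control 1.

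Among 23 tested transcription regulators linked to tendon or to the diaphragm, 16 were higher and 4 lower. Besides *Mkx* these included *Six2* (37.5 against 4.09 in control 1 and 67.8 against 5.21 in control 2, 10.98-fold), a homeobox factor of mesenchyme, *Tbx5* (7.44-fold), a T-box factor of forelimb-level mesoderm, and *Foxf1* (5.05-fold), a forkhead factor of splanchnic mesoderm. *Egr1*, an early response factor linked to tendon collagen, differed little at 12.2 against 10.6 in control 1 and 23.7 against 16.2 in control 2 (log2 fold change 0.39, SE 0.13, adjusted p = 0.0244), and *Tcf4*, a basic helix-loop-helix factor, was not called at 237 against 218 in control 1 and 286 against 213 in control 2 (adjusted p = 0.0916, edgeR). *Sox9*, the regulator of cartilage, was 1.52-fold higher (23.3 against 15.3 in control 1 and 21.8 against 14.2 in control 2, adjusted p = 0.00039, edgeR) but turned lower in 4 alternatives, among them leaving out spots above the cartilage threshold, at −0.51 on the log2 scale.

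Signaling genes also differed between the regions. Of 23 TGF-β genes, which drive tendon growth and collagen transcription, 15 were higher and none lower. Without the section block 7 were higher, and without TMM scaling all 23. *Tgfb3* was at 269.9 against 113 in control 1 and 383 against 132 in control 2 (log2 fold change 1.40, SE 0.13, adjusted p = 1.03e-07), *Tgfb1* was 1.7-fold higher and the receptor *Tgfbr2* 1.94-fold, but *Tgfb2* was not called at 129.8 against 126 in control 1 and 137 against 112 in control 2 (adjusted p = 0.209, edgeR). *Ltbp2*, a microfibril protein related to latent TGF-β binding proteins, was 4.26-fold higher. BMP and GDF genes gave 18 higher and 6 lower of 30, FGF genes and ERK feedback genes 10 and 4 of 20, Wnt genes 15 and 9 of 26, and mechanosensing genes and Yap targets 15 and 5 of 25. Without the section block these lists gave, in that order, 10 and 3, 7 and 4, 9 and 5, and 10 and 5. In these lists *Bmp2* was 3.8-fold higher, the ligand *Fgf18* 4.7-fold, the secreted Wnt binding protein *Wif1* 10.4-fold, the related secreted *Dkk3* 8.67-fold, and the matrix protein and Yap target *Ccn2* 5.84-fold (348 against 58.9 in control 1 and 598 against 104 in control 2). The collagen receptor subunits *Itga10* and *Itga11* were 4.52-fold and 3.87-fold higher and the force-gated channels *Piezo1* and *Piezo2* 1.47-fold and 2.33-fold. Lower genes were *Axin2*, a target of β-catenin (47.3 against 74.3 in control 1 and 52.3 against 90.7 in control 2, 1.65-fold lower), the β-catenin partners *Tcf7* and *Lef1* (3.65-fold and 2.07-fold, at under 5 scaled CPM), the FGF decoy receptor *Fgfrl1* (2.73-fold) and *Srf* (1.83-fold), a transcription factor of muscle and cytoskeletal genes.

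Retinoic acid genes gave 10 higher and 2 lower of 18, and 5 higher without the section block. The breakdown enzyme *Cyp26b1* was at 28.7 against 1.94 in control 1 and 50.2 against 2.3 in control 2 (log2 fold change 4.17, SE 0.15, adjusted p = 9.97e-13), and *Cyp26a1* was near the limit of detection at 4.14 against 0.15 in control 1 and 4.29 against 0.300 in control 2 (18.98-fold). The synthesis enzyme *Aldh1a2*, known from mesothelium, was 1.76-fold higher, the binding protein *Crabp2* 3.28-fold and the receptor *Rarg* 2.4-fold. *Aldh1a2* stood at 0.82 on the log2 scale and was not called without the section block, nor at 0.39 with both mutant sections added, nor then without control 1 (0.12) or control 2 (0.35).

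The 12 largest falls were led by *Myh4*. *Myh4*, a fast myosin heavy chain, was at 47.1 against 201 in control 1 and 58.05 against 277 in control 2 (log2 fold change −2.17, SE 0.12, adjusted p = 2.13e-10), and *Ckmt2*, mitochondrial creatine kinase of striated muscle, at 673 against 2394 in control 1 and 515 against 2337 in control 2 (4.02-fold lower). The others, *Chrna9*, *Ddit4l*, *Ankrd2*, *Gpd1*, *Tmem52*, *Slc9a2*, *Barx2*, *Mettl21e*, *Thrsp* and *Alpk2*, were between 3.64-fold and 4.33-fold lower. Of 9 muscle markers 7 were lower, including *Ttn* (2.23-fold), *Des* (2.02-fold) and *Myl1* (2.94-fold), and none was higher.

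Markers of further cell types moved with the contrast as well. Macrophage genes were higher in 5 of 6 (*C1qb* 1.64-fold), mesothelium genes in 6 of 8, cartilage genes in 5 of 7, and MTJ genes in 3 of 4 with *Rxrg* lower. Without the section block these counts were 1, 2, 1 and 2, and by DESeq2 3, 4, 2 and 2. With tendon-rich spots outside muscle alone MTJ genes turned to 1 higher and 2 lower, with *Ankrd1* at −0.41 (log2, adjusted p = 0.0205, edgeR), and hepatocyte genes to 4 of 5 higher. Erythrocyte genes were lower in 4 of 4, endothelial genes in 5 of 7 and Schwann cell genes in 3 of 6, but on library totals without TMM scaling endothelial genes gave 1 higher and none lower and Schwann cell genes 1 and 1. Fibroblast genes split into 4 higher and 3 lower of 8, and 1 of 5 hepatocyte genes was lower. The part of these cell types in the differences above was not tested, other than by leaving out spots. Without spots of at least 1% of UMIs from hepatocyte or cartilage genes there were 6848 and 6778 calls, against 6539. Without spots above the cartilage threshold there were 6511, and with tendon-rich spots outside muscle alone 6957. Cell division genes were higher in 6 of 17, with a median log2 fold change of 0.24, in 15 of 17 without TMM scaling, in 2 by DESeq2 and in 1 without the section block.

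**Figure D3:**
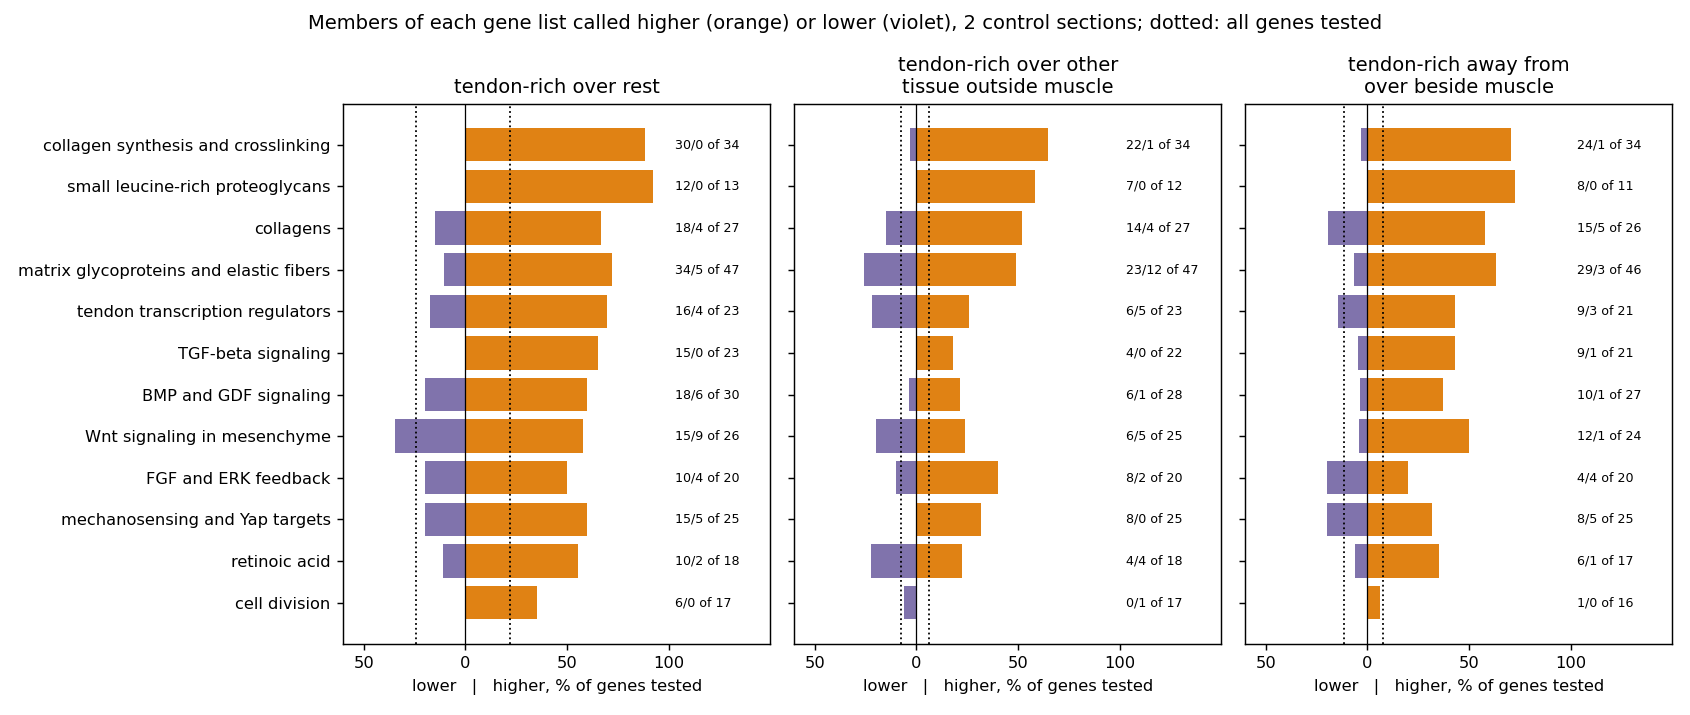
Share of the tested genes of 12 lists called higher (orange, right) and lower (violet, left) in 3 comparisons of the 2 control sections, with counts higher/lower of tested beside each bar and dotted lines at the share among all genes. Collagen synthesis genes stand at 30 of 34, 22 of 34 and 24 of 34 higher, and TGF-β genes at 15 of 23, 4 of 22 and 9 of 21.

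A second comparison kept muscle out of both sides. The 195 and 157 tendon-rich spots outside muscle were set against the 173 and 169 other spots outside muscle in controls 1 and 2, tissue that held nerve, liver, blood and mesothelium. Of 12340 genes 773 were higher in tendon-rich spots and 911 lower, 6.26% and 7.38% of all genes. Here the call depended on the model, as 15 genes were called without the section block (1631 at an unadjusted p under 0.05) and 437 by DESeq2, and without TMM scaling the median gene shifted by −0.17 (log2) and the split was 448 and 1397.

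*Kera*, *Angptl7* and *Mkx* also stood out against other tissue outside muscle. *Kera* had scaled CPM of 182 against 7.33 in control 1 and 306 against 9.11 in control 2 (log2 fold change 4.89, SE 0.18, adjusted p = 4.61e-09), *Angptl7* at 264 against 13.99 in control 1 and 784 against 25.6 in control 2 (log2 fold change 4.66, SE 0.20, adjusted p = 1.07e-08), and *Mkx* at 96.9 against 8.99 in control 1 and 181 against 14.53 in control 2 (log2 fold change 3.56, SE 0.17, adjusted p = 2.75e-08). All 3 were over 10-fold higher in each control. *Six2* at 57.8 against 3.33 in control 1 and 99.3 against 8.13 in control 2 and *Col11a2* at 359 against 24.6 in control 1 and 526 against 35.7 in control 2 followed, and the rest of the 12 largest rises were *Ism1*, *Acan*, *Zfp185*, *C1qtnf3*, *Scube2*, *Egfl6* and *Ecrg4* (8.57-fold to 12.4-fold). *Thbs4* was at 490.2 against 133 in control 1 and 628 against 123 in control 2 (4.35-fold, adjusted p = 1.74e-06, edgeR) and *Cilp*, cartilage intermediate layer protein, at 294 against 51.96 in control 1 and 355 against 38.7 in control 2 (7.21-fold). *Col1a2* was 3.73-fold higher (adjusted p = 0.0434, edgeR) but was called in 7 of 17 settings (highest adjusted p = 0.149), while *Col1a1*, at 40683 against 12933 in control 1 and 60088 against 14067 in control 2, was not called (log2 fold change 1.87, SE 0.64, adjusted p = 0.0693, edgeR).

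The matrix lists again held more higher than lower genes. Collagen synthesis genes gave 22 higher and 1 lower of 34, small leucine-rich proteoglycans 7 and none of 12 with *Ogn* (mimecan) and *Ecm2* at 3.46-fold and 4.92-fold, and collagens 14 and 4 of 27. Matrix glycoproteins gave 23 higher and 12 lower of 47, with *Postn* (periostin) at 4339 against 1595 in control 1 and 4943 against 1576 in control 2 and *Tnn* at 79.1 against 4.0 in control 1 and 112 against 26.8 in control 2 on the higher side and *Tnxb*, tenascin X, at 157 against 452 in control 1 and 133 against 406 in control 2 and *Ccn5* at 3.56 against 22.3 in control 1 and 5.65 against 46.5 in control 2 on the lower. Without the section block only 1 gene in each of these lists except collagen synthesis, which had none, was called. Tendon regulators split into 6 higher and 5 lower of 23, *Osr1* (38.7 against 93.6 in control 1 and 34.2 against 76.8 in control 2), *Wt1* (36.9 against 83.9 in control 1 and 27.6 against 44.8 in control 2) and *Gata6* (48.1 against 84.6 in control 1 and 42.8 against 73.4 in control 2), factors of mesothelium and of the mesenchyme that builds the diaphragm, being lower.

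Of 22 TGF-β genes 4 were higher, among them *Tgfb3* at 402 against 219 in control 1 and 581 against 239.8 in control 2 and *Tgfb2* at 157 against 109 in control 1 and 170.1 against 104 in control 2, and none was lower. FGF genes gave 8 higher and 2 lower of 20, with *Fgf18* and *Fgf9* 2.85-fold and 4.39-fold higher, and mechanosensing genes gave 8 and none of 25, with *Itga10*, *Itga11* and *Ccn2* 4.26-fold, 3.98-fold and 4.22-fold higher. BMP and GDF genes gave 6 and 1 of 28, *Bmp3* being 5.0-fold higher and the joint ligand *Gdf5* low at 3.31 against 1.0 in control 1 and 3.99 against 0.74 in control 2. Retinoic acid genes gave 4 and 4 of 18. *Cyp26b1* was at 51.6 against 10.99 in control 1 and 86.7 against 8.62 in control 2 and *Cyp26a1* at 7.12 against 0 in control 1 and 6.31 against 0.98 in control 2, while *Stra6*, a retinol uptake receptor, had no UMI in tendon-rich spots of either control and stood at 3.0 and 2.71 elsewhere outside muscle. Wnt genes gave 6 and 5 of 25, with *Wif1* 3.23-fold higher.

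The 12 largest falls included genes of neurons and liver. Neuronal *Tubb3* was at 0.25 against 12.7 in control 1 and 2.66 against 135 in control 2, *Stmn2* at 23.1 against 108 in control 1 and 35.5 against 619 in control 2 and *Phox2a*, an autonomic neuron factor, at 0.76 against 12.3 in control 1 and 2.32 against 112 in control 2, lower in both controls, with the higher levels in control 2. *Stmn3*, *Prph*, *Rtn1*, *Stmn4* and *Hand2* were 8.29-fold to 33.3-fold lower. *Serpina1e* and *A2m*, liver genes, were lower through control 1 (112 against 1093 for *Serpina1e*, near 0 in control 2), and *Serpina1e* lost its direction without the spots of at least 1% hepatocyte UMIs. *Myh6*, atrial myosin, and *Car2* completed the 12, both mainly through control 1, and *Myh6* turned 3.62 higher on the log2 scale when the top 20% of spots were taken. The fibroblast genes *Dpt* (213 against 551 in control 1 and 191 against 524 in control 2), *Clec3b* (304 against 854 in control 1 and 350.4 against 1145 in control 2) and *Ly6a* (0.76 against 4.0 in control 1 and 1.33 against 6.16 in control 2) were lower, as were 5 of 8 fibroblast, 5 of 8 mesothelium (none by DESeq2), 4 of 4 smooth muscle and 6 of 6 Schwann cell genes (*Sox10* 4.58-fold). Cartilage genes were higher in 7 of 7, and their part in the rises was not tested beyond leaving out spots. Without spots above the cartilage threshold there were 1425 calls, and without spots of at least 1% cartilage UMIs 1482, where all spots gave 1684.

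A further comparison asked how tendon-rich spots differed along their distance to muscle. In the controls 66 and 70 tendon-rich spots had no muscle spot among themselves and their 6 neighbours, and 280 and 182 lay in or beside muscle, 151 and 95 of them being muscle spots themselves. Of 11716 genes 921 were higher away from muscle and 1353 lower, 7.86% and 11.5% of all genes, and 52 were called without the section block (1612 at an unadjusted p under 0.05) and 649 by DESeq2. Without TMM scaling the median gene shifted by 0.12 (log2), with 1552 higher and 1042 lower. With the muscle spots left out of the beside class, a setting chosen after the data were seen, 117 genes were higher and 138 lower of 10895, and 29 of 48 named genes outside the rule kept their call. The 5 rule genes picked the spots on both sides, so their scaled CPM, away against beside, are given with no test. *Fmod* was at 1891 against 1048 in control 1 and 2939 against 2022 in control 2, and *Col11a1* at 874 against 593 in control 1 and 1397 against 907 in control 2. *Col12a1* was at 902 against 711 in control 1 and 1341 against 1065 in control 2. *Tnmd* was at 1344 against 1023 in control 1 and 1282 against 1295 in control 2, and *Scx* at 138 against 162 in control 1 and 311 against 283 in control 2. *Fmod*, *Col11a1* and *Col12a1* stood higher away from muscle in each control where the beside class held its muscle spots, and *Tnmd* and *Scx* went opposite ways in the 2 controls.

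MTJ genes marked the muscle side. All 4 were lower away from muscle, also without the section block and without the muscle spots. The classes were cut by muscle genes, so transcripts made in muscle fibers had to be lower away from muscle. For such genes the test asks only whether the difference exceeded the spread between the 2 controls. *Col22a1* was at 54.6 against 413 in control 1 and 27.6 against 391 in control 2 (log2 fold change −3.29, SE 0.14, adjusted p = 3.6e-33), and *Ankrd1*, a load-responsive ankyrin repeat protein of muscle, at 15.2 against 102 in control 1 and 21.9 against 117 in control 2 (log2 fold change −2.56, SE 0.18, adjusted p = 7e-21). Both were lower away from muscle by more than 5-fold in each control. *Uchl1* and the nuclear receptor *Rxrg* were 4.25-fold and 3.31-fold lower, and the remaining largest falls were *Tigd4*, *Map3k7cl*, *Kcnc4*, *Cacng1* and *Ankrd23*, the last 2 genes of muscle. Among matrix genes, *Thbs4* was at 313 against 521 in control 1 and 355 against 784 in control 2 (log2 fold change −0.94, SE 0.10, adjusted p = 4.95e-13) and *Cilp* at 205 against 306 in control 1 and 287 against 349 in control 2 (1.34-fold lower), and the sheath marker *Tppp3* was 2.04-fold lower. *Tnc*, at 285 against 306 in control 1 and 329 against 354 in control 2, was not called (adjusted p = 0.526, edgeR). *Egr1*, *Smad7*, *Fgf7* and *Wnt4* were also lower, by 1.8-fold, 1.79-fold, 2.26-fold and 2.12-fold, and without the muscle spots none of these 4 was called.

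Against the class that held the muscle spots, many fibril genes were higher away from muscle. Collagen synthesis genes gave 24 higher and 1 lower of 34, matrix glycoproteins 29 and 3 of 46, small leucine-rich proteoglycans 8 and none of 11, and collagens 15 and 5 of 26. Most of these calls needed the section block: without it collagen synthesis had 1 higher gene, collagens 1 lower gene and the other 2 lists none, and DESeq2 called 11, 19, 7 and 13 higher in the 4 lists in the order given. Without the muscle spots the lists gave 2, 10, 3 and 1 higher genes. *Col1a1* was at 39611 against 24873 in control 1 and 54177 against 40632 in control 2 (log2 fold change 0.54, SE 0.08, adjusted p = 2.78e-08), *Eln*, elastin, at 3694 against 1394 in control 1 and 3888 against 2303 in control 2 (2.11-fold), and *Lox* at 539 against 275 in control 1 and 994 against 572 in control 2 (1.84-fold). *Angptl7*, *Kera*, *Comp*, *Pcolce2*, *Prelp* and *Tnn* were 2.39-fold, 1.84-fold, 2.47-fold, 2.65-fold, 2.47-fold and 2.08-fold higher. Without spots above the cartilage threshold *Comp* and *Prelp* stood at 0.12 and 0.35 on the log2 scale, where all spots gave 1.31 for both, and were not called. Without the muscle spots *Eln*, *Lox*, *Angptl7*, *Comp*, *Pcolce2* and *Prelp* were still called, while *Col1a1* stood at 0.064 (adjusted p = 0.743, edgeR) and *Kera* at 0.25 (adjusted p = 0.27). Of the regulators *Mkx* (1.29-fold) and *Tbx5* (1.79-fold) were higher, though neither was called without the muscle spots, where *Mkx* stood at −0.045 (log2). *Six2* was not called (adjusted p = 0.576), and *Sox9* was at 78.1 against 15.99 in control 1 and 70.1 against 10.9 in control 2 (log2 fold change 2.45, SE 0.17, adjusted p = 3.23e-20). Over the settings *Sox9* ranged from 0.64 to 3.10 on the log2 scale and was called in 13 of 14. *Tgfb3* was 1.25-fold higher (log2 0.033, not called, without the muscle spots), and *Tgfb2*, at 126 against 157 in control 1 and 139 against 166 in control 2, was not called (adjusted p = 0.0618, edgeR). *Wif1*, *Dkk3*, *Fgf18*, *Bmp3* and *Osr1* were 2.28-fold, 1.85-fold, 1.82-fold, 1.8-fold and 2.15-fold higher, of which *Wif1* was called without the muscle spots.

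The largest rises away from muscle were mostly liver and cartilage genes, tissues that moved together with the fibril genes above. *Ahsg* was at 1395 against 146 in control 1 and 2.12 against 0 in control 2, *Trf* at 1571 against 175 in control 1 and 41.8 against 31.1 in control 2 and *Apoc1* at 179 against 16.9 in control 1 and 2.83 against 2.04 in control 2, so these 3 rose mainly in control 1. *Rbp4*, at 166 against 17.5 in control 1 and 28.3 against 4.76 in control 2, was higher in both controls. In control 2 the hepatocyte genes summed to 1.01 raw CPM over all tendon-rich spots, and the tissue behind *Rbp4* there was not tested. The complement gene *C3* was at 361 against 84.3 in control 1 and 58.03 against 51.2 in control 2. *Col9a1* was at 235 against 80.2 in control 1 and 275 against 26.5 in control 2, *Col9a3* at 163 against 55.8 in control 1 and 143 against 31.8 in control 2 and *Chad* at 59.4 against 24.9 in control 1 and 205 against 64.6 in control 2, higher in both controls, as were 7 of 7 cartilage markers. Mesothelium genes were higher in 5 of 7 (none without the section block or by DESeq2) and hepatocyte genes in 5 of 5 (none and 1). Leaving out spots with at least 1% hepatocyte UMIs gave 2310 calls, against 2274, with 1 of 5 hepatocyte genes higher. Leaving out spots above the cartilage threshold gave 1704 calls, while *Kera*, *Angptl7* and *Col1a1* kept their direction in all alternatives, though not always their call.

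The tendon-rich spots were also split, as raw CPM, into 4 classes of distance: in muscle, within 110 µm of it, at 110 to 210 µm and farther than 210 µm. The classes held 151, 129, 43 and 23 spots in control 1, 95, 87, 47 and 23 in control 2, 30, 46, 26 and 31 in CaV1.1 -/-, and 91, 58, 35 and 31 in bCat cKO. *Col22a1* was at 499, 229, 67.8 and 39.3 in control 1, 519.7, 188, 37.3 and 4.93 in control 2, 196, 28.9, 34.1 and 4.78 in CaV1.1 -/- and 479, 93.7, 27.9 and 16.2 in bCat cKO, lower with distance in all 4 sections apart from the middle classes of CaV1.1 -/-. *Thbs4* was at 466, 545, 318 and 365 in control 1, at 789, 726, 405 and 247 in control 2, at 36.1, 23.1, 20.4 and 19.1 in CaV1.1 -/- and at 687, 402, 199 and 264 in bCat cKO, low at every distance in CaV1.1 -/-. *Angptl7* was at 35.8, 219, 316 and 354 in control 1 and 19.7, 141, 221 and 316 in bCat cKO, highest farthest from muscle, and at 179, 634, 963 and 481 in control 2, highest at 110 to 210 µm. *Scx* had no shared order, at 133, 189.8, 126 and 190.1 in control 1 and 241, 321, 340.2 and 252 in control 2.

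**Figure D4:**
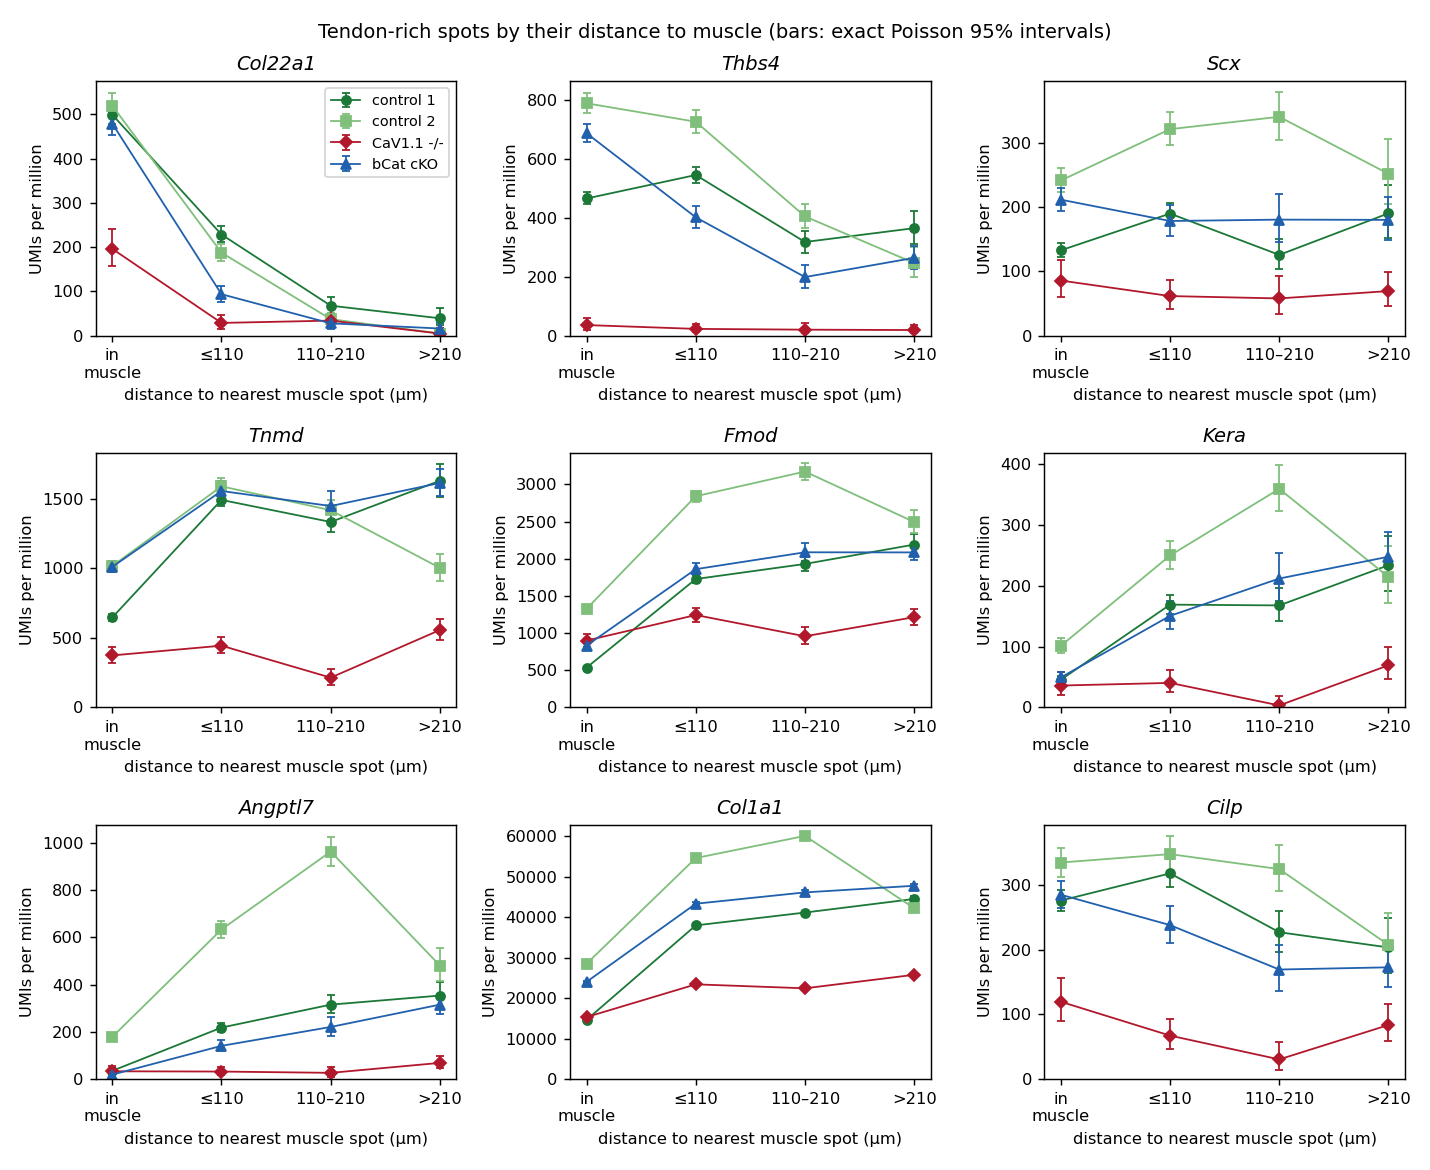
Raw CPM of 9 genes in tendon-rich spots by distance to the nearest muscle spot (in muscle, up to 110 µm, 110 to 210 µm, over 210 µm) in the 4 E18.5 sections, with exact 95% Poisson intervals that cover counting error only. *Col22a1* falls with distance in the controls and bCat cKO, *Fmod*, *Kera* and *Col1a1* are lowest in muscle in both controls, and *Thbs4* and *Scx* of CaV1.1 -/- lie below the other sections in every class.

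In the mutants the targeted genes were read first. *Cacna1s*, which encodes CaV1.1, stood at 45.7, 34.2, 16.1 and 27.2 raw CPM in the tendon-rich spots of control 1, control 2, CaV1.1 -/- and bCat cKO and at 59.5, 61.5, 25.6 and 50.9 in the rest, lowest in CaV1.1 -/- in both regions but present. The 9 muscle genes were also lowest in CaV1.1 -/-, summing to 71524, 51682, 24533 and 40527 raw CPM in tendon-rich spots, in the same order. In the rest they summed to 127139, 128561, 57280 and 90648. Whether *Cacna1s* was low beyond these muscle transcripts was not tested. *Ctnnb1*, β-catenin, stood at 125, 145, 119 and 146 in tendon-rich spots, with no section far from the controls. Where the probes lie against the deleted parts is not given in the sources used here, so these levels check the labels only weakly. The mutants are compared as values among 10699 genes with at least 10 CPM in the tendon-rich spots of one of the 4 sections, a gene counting as apart where it lay 2-fold or more beyond both controls. The controls lay 2-fold apart from each other for 236 genes, 2.21%.

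CaV1.1 -/- tendon-rich spots had 637 genes above both controls, 5.95% of those considered, and 230 below, 2.15%. The median gene stood 0.29 (log2) above the mean of the controls, and with TMM scaling the counts became 335 above and 380 below. All 9 further tendon genes were lower than in both controls, where 1903 of all 10699 genes were. In CaV1.1 -/- against control 1 and control 2, in raw CPM, *Tnmd* was at 414 (exact Poisson 95% interval 383 to 446) against 1050.5 and 1268, and *Scx* at 69.2 (57.2 to 83.1) against 154 and 284. The rule selected on both genes, at a summed level that differed between sections, so these levels are a description and support nothing. *Thbs4* was at 25.1 (18.1 to 33.9) against 469.97 and 667, 18.7-fold below the lower control, and in the rest of the section at 17.7 against 119 and 141. *Tppp3* was at 62.1 against 578 and 418, *Comp* at 5.97 against 35.4 and 70.4, and *Kera* at 40.00 against 109 and 200.04. The low *Thbs4* and *Tppp3* were not particular to these spots, since in the rest of the section *Tppp3* was also low, at 79.3 against 639 and 693.

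In raw CPM not all of the tendon program was lower in CaV1.1 -/-. Of 44 matrix glycoproteins 9 were below both controls by 2-fold or more (*Angptl7*, *Cilp*, *Comp*, *Has2*, *Mfap5*, *Prg4*, *Spon2*, *Thbs4* and *Tnn*) and 1 above (*Smoc2*), with *Angptl7* at 41.2 against 143 and 477 and *Cilp* at 78.8 against 279.9 and 328. Of 26 collagens *Col11a2*, *Col22a1* and *Col24a1* were below, *Col22a1* at 68.1 against 339 and 297, and *Col26a1* above, and of 11 small proteoglycans *Kera*, *Ecm2* and *Aspn* were below. Of 32 collagen synthesis genes *P4ha3* and *Pcolce2* were below, none was above, and the median log2 ratio was 0.00 where the median over all genes was 0.29. *Mkx* was at 68.7 against 68.9 and 132, *Lox* at 340.3 against 313 and 661, *Serpinh1* at 1919 against 1707 and 2762, and *Tgfb3* at 343 against 306 and 436. *Lox*, *Serpinh1* and *Tgfb3* lay between the controls in raw CPM, and *Mkx* just below the lower one. The TMM factors of these spots were 0.911, 0.938 and 1.14 in control 1, control 2 and CaV1.1 -/-. With that scaling *Lox*, *Serpinh1* and *Tgfb3* also lay below both controls. Over all settings *Mkx* ranged from −1.05 to 0.07 and *Lox* from −0.82 to 0.19 on the log2 scale against the mean of the controls. *Col1a1* was at 21691 against 26739.5 and 43095.

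Some regulators and retinoic acid genes stood above the controls. Of 20 regulators *Osr1* (90.1 against 24.3 and 23.8), *Wt1* (88.3 against 26.5 and 26.3), *Gata6* (73.4 against 33.5 and 33.5) and *Zfpm2* were above by 2-fold or more and none below, and of 16 retinoic acid genes *Aldh1a2* (49.5 against 23.7 and 14.7) and *Rbp4* were among those above and none was below. With TMM scaling *Gata6* and *Aldh1a2* stayed under 2-fold over the nearer control, while *Osr1* and *Wt1* still passed it. Among 22 TGF-β genes *Ltbp2* was at 31.4 and 46.3 in the controls and at 239 in CaV1.1 -/-, where the rest of the section had 199, and *Cdkn2b* was above as well. The 8 genes farthest above were *Lratd1* (80.6 against 2.89 and 2.7), *Fam110c*, *Adra2a*, *Fgl1*, *S100a8*, *Ambp*, *Apcs* and *Serpinf2*, of which *Fgl1*, *Ambp*, *Apcs* and *Serpinf2* are made in liver. The first of these, *Lratd1*, was also high in the rest of the section, at 60.5.

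Other tissues moved with these values in CaV1.1 -/-. Hepatocyte genes were above both controls in 5 of 5, summing to 9751 CPM in tendon-rich spots and 4401 in the rest (*Alb* the most abundant), against 1629.8 and 1.01 in the tendon-rich spots of the controls. Erythrocyte genes were above in 4 of 4 (1582 against 587 and 499), Schwann cell genes in 3 of 4 and mesothelium genes in 3 of 7 (543 against 256 and 208). Cartilage genes were below in 6 of 7 (309 against 1122 and 1565, *Matn1* and *Matn3* at 0), MTJ genes in 3 of 4, and the 9 muscle genes summed to 24533 against 71524 and 51682. Without the spots of at least 1% hepatocyte UMIs, 588 genes were above and 223 below. The part of the other cell types was not tested. Of the 8 genes farthest below, *Myl2*, *Myl3*, *Smtnl1* and the Y-linked *Ddx3y* and *Eif2s3y* are not tendon genes, *Col9a1* is a cartilage collagen, and *Thbs4* and *Ptx4* remain, *Ptx4* at 1.79 against 37.9 and 50.7 with 2.07 and 3.18 in the rest of the controls. *Ddx3y*, set to the level of 3 UMIs, was at least 30.1-fold lower than in the nearer control.

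**Figure D5:**
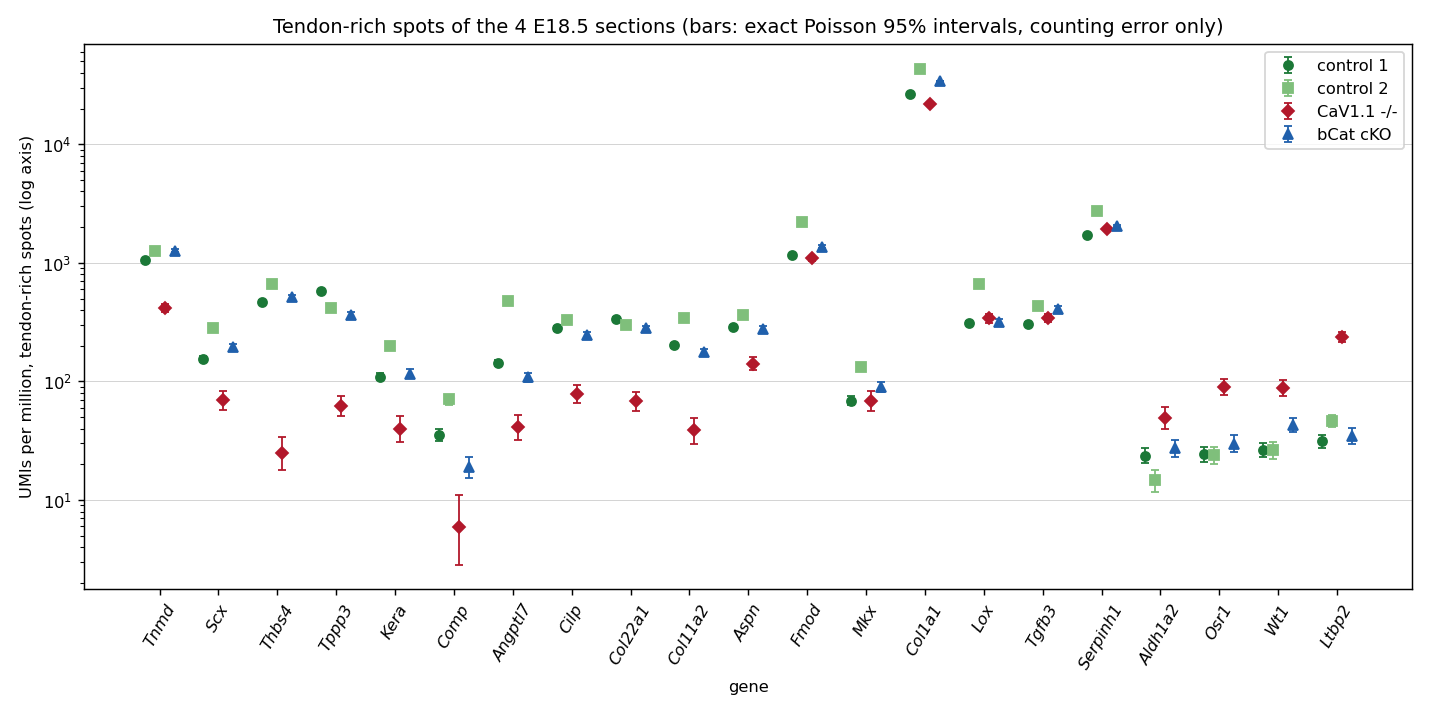
Raw CPM (log axis) of 21 genes in the tendon-rich spots of control 1, control 2, CaV1.1 -/- and bCat cKO, with exact 95% Poisson intervals that cover counting error only. From *Tnmd* to *Aspn* the CaV1.1 -/- diamond lies below both controls, from *Aldh1a2* to *Ltbp2* above both, and the bCat cKO triangle lies within or near the controls except for *Comp* and *Wt1*.

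In the tendon-rich spots of bCat cKO 98 genes lay above both controls, 0.916% of those considered, and 121 below, 1.13%. The median gene stood 0.15 (log2) above the mean of the controls. None of the 44 matrix glycoproteins, 32 collagen synthesis genes, 22 TGF-β genes, 20 regulators and 11 small proteoglycans lay 2-fold or more beyond both controls. Of 26 collagens *Col26a1* lay above by that measure and *Col23a1* below. *Thbs4* was at 513, *Mkx* at 89.6, *Kera* at 117 and *Col22a1* at 279.8, where the controls held 469.97 and 667, 68.9 and 132, 109 and 200.04 and 339 and 297. All of these but *Col22a1*, which was 1.06-fold below the lower control, lay between the controls in raw CPM over all tendon-rich spots. On the log2 scale against the mean of the controls *Col22a1* stood at −0.19 and ranged from −1.34, in tendon-rich spots outside muscle, to 0.07, in the top 20% of spots. On that scale *Thbs4* ranged over the settings from −0.718 to −0.068, *Kera* from −0.555 to −0.245 and *Mkx* from −0.313 to 0.066. *Angptl7*, the largest rise in the controls, stood lower at −1.507 and ranged from −1.651 to −1.216. *Ccn2* was at 263 against 394 and 681, and *Comp* at 19.01 against 35.4 and 70.4. Whether the 2 mutants differed from each other was not tested.

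Some genes did lie apart in bCat cKO. *Fgfrl1* was at 83.5 against 375 and 320.4 in the controls, with 110.1 in the rest of the section, and *Frzb*, a secreted Wnt antagonist, at 1.76 against 16.5 and 13.5. Of 16 retinoic acid genes the binding protein *Crabp1* was above (15.1 against 6.38 and 5.73), and cell division genes were higher than in both controls in 15 of 15, none by 2-fold, where 5775 of all 10699 genes were higher than both. Cartilage genes were below in 4 of 7 (558 summed), with *Col9a1* at 20.4. The genes farthest below were the slow-muscle and cardiac light chains *Myl3* (0.78 against 66.2 and 67.2) and *Myl2*, the slow myosin *Myh7* (103 against 1402 and 1195), *Lrtm1*, *Mylk3* and *Myh1*, muscle genes that were also low in the rest of that section. The genes farthest above were keratins and other genes of stratified epithelium (*Krt4*, *Krt15*, *Krt13*, *Krt6a*, *Psca*, *Calml3*, *Upk3bl* and *Cyp2f2*). *Krt4* was at 373 in tendon-rich spots and 1361 in the rest, and the smooth muscle genes *Cnn1* (18.03) and *Myh11* (35.9) were above the controls and higher still in the rest (49.4 and 78.3). The part of these tissues in the tendon values was not tested, and restricted to spots outside muscle the counts were 167 above and 230 below.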

How the data were processed

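Per the labels and file headers, the authors processed probe-based Visium libraries with Space Ranger (version 2.0.1 for the E18.5 sections) on mm10 and with Seurat, and deposited UMI counts per gene and spot, used here as raw counts. The members and all gene lists were chosen with earlier results of these data known. Spots with 1000 UMIs or more were kept, ranked as described, and their counts summed per section and region. Muscle spots were called by an Otsu threshold on 9 muscle genes. Sums were tested in edgeR 4.0.16 (R 4.3.3; TMM, section as block, quasi-likelihood, adjusted p under 0.05). DESeq2 1.42.0 was an alternative. Both regions come from the same section, which pairs them (correlation of deviations 0.674, 0.665 and 0.596 in the 3 comparisons). The fits were tested on simulated data and recovered 74.7%, 64.3% and 63.6% of the 2-fold changes. Every simulated gene had a dispersion of 0.02 and no section effect. These shares therefore do not show how the fits perform with the section differences of the real data. Named were the 12 largest rises and falls among genes with mean log2 CPM over 5 (8 along distance and per mutant) and members of the lists. Poisson intervals (scipy 1.17.1) and floors of 3 UMIs cover counting error only. Tendon-rich spots summed to 8311249 and 5933828 UMIs in the controls, 1675102 in CaV1.1 -/- and 5103008 in bCat cKO. The 11 duplicated symbols were left out of named values. Some items are not reported here.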

Additional observations from a re-analysis of the deposited data

Results flagged for a closer look

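Some genes were higher in tendon-rich spots than in the rest of both control sections but lower in a mutant section, or the reverse, as ratios of raw CPM. These differences between groups were not tested, since each mutant has 1 section, and no group had enough samples for a check of single outlying samples.

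In CaV1.1 -/- the ratio of *Sox9* was 0.556 (controls 1.98 and 1.95), of *Col24a1* 0.817 (3.55 and 4.88), of *Crabp1* 0.896 (2.19 and 2.13) and of *Ankrd1* 0.956 (2.63 and 2.10). *Sox9* is a cartilage regulator and *Ankrd1* an MTJ gene. The summed cartilage and MTJ lists did not go the same way, at 309 against 130.1 CPM and 247 against 215 in tendon-rich spots and the rest of that section, ratios of 2.37 and 1.15.

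In bCat cKO the ratio of *Aldh1a2* was 0.880 (2.82 and 1.73), of *Foxf1* 0.930 (5.21 and 8.20), of *Sox9* 0.954, of *Myh11* 0.458 (1.64 and 1.22) and of *Calml3* 0.293 (1.70 and 8.38). *Myh11* and *Calml3* belong to smooth muscle and stratified epithelium, which were present in the rest of that section. *Axin2*, a target of β-catenin, went the other way, at 1.39 in bCat cKO against 0.829 and 0.735 in the controls.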

How the results depend on the processing

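The number of called genes depended on how the samples were modelled. Without the replicate block, that is without pairing the regions of a section, 2888 genes were called in tendon-rich spots against the rest, 15 against other tissue outside muscle and 52 away from muscle against beside it, and 71 of 85, 9 of 58 and 11 of 48 named genes outside the rule kept their call. DESeq2 called 4077, 437 and 649. Leaving out each control in turn, with both mutant sections added for the spread, gave 4206 to 4323, 290 to 307 and 1661 to 1953 calls. Outside muscle the count was 2718 for the top 5% of spots, 923 for the top 20%, 950 with a mean log-normalized score, 712 with the 5 genes weighted equally and 1113 without spots within 150 µm in the rest, and along distance it was 954 with the beside class widened to 210 µm and 255 with the muscle spots left out of it. For the mutants, TMM scaling gave 335 genes above and 380 below in CaV1.1 -/-, and tendon-rich spots outside muscle gave 167 above and 230 below in bCat cKO. Few named genes changed direction. *Sox9* fell to −0.30 (log2) for the top 5% of spots, −0.061 without either control and −0.51 without spots above the cartilage threshold, and *Ankrd1* to −0.41 in spots outside muscle. *Myh6* moved to 3.62 for the top 20% of spots and *Serpina1e* to 0.08 without spots of 1% hepatocyte UMIs, and along distance *Ahsg* moved to −2.47 and *Trf* to −1.20 with the beside class widened, while *Mkx* moved to −0.045 and the rule gene *Col12a1* to −0.043 without the muscle spots in that class. The causes were not tested. With 2 controls and 1 section per mutant, the sex, liver and epithelium differences of the mutant sections cannot be told apart from genotype. Settings that leave out spots of 1% cartilage or hepatocyte UMIs or muscle spots of the beside class and TMM scaling of the mutants were added after the data were seen.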

Other observations

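The same rule was applied to the E14.5 sections, of which 3 were controls and 1 was CaV1.1 -/-, as values only. It gave 81, 84 and 68 spots in the controls and 89 in CaV1.1 -/-. The 5 genes summed to 3252, 2651 and 2864 raw CPM in these spots of the controls, against 472, 562 and 507 in the rest, and to 1326 against 389 in CaV1.1 -/-. *Tnmd* stood at 1125, 643 and 711 CPM in the controls and 69.7 in CaV1.1 -/-, and *Scx* at 212, 194 and 214 and 132. All 5 genes were lower in CaV1.1 -/- than in each control. The spots were picked to be high on these genes in each section, and whether the difference holds over embryos was not tested, since CaV1.1 -/- has 1 section.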
